A study of Mus musculus with 4 samples.

Results

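Kupffer cell and macrophage markers were followed in mouse liver through 10 genes, namely Vsig4, Clec4f, Cd5l, Marco, Cd163, Adgre1, Csf1r, Cd68, Lyz1 and Lyz2. The members are the probe sets whose only gene symbol in the platform annotation, updated through the Entrez identifier, is that of a listed gene. This gave 14 of the 22626 probe sets that are not controls, and each of the 10 genes, of 12393 named on the array, had at least 1. The 4 arrays of the series (Affymetrix Mouse Expression 430A) measured liver RNA of adult male C57BL6 mice on day 6 after injection of an adenovirus. In 2 of them the virus carried the beta form of mouse lipin 1 (Ad-lipin), and in the other 2 it carried green fluorescent protein (GFP), so both groups had received adenovirus and no liver without virus was measured here. Lipin 1 is a phosphatidate phosphatase, and in the nucleus it works with transcription factors on genes of fatty acid oxidation. The sample of Ad-lipin replicate 2 is labelled polyA RNA, whereas the label of the other 3 is total RNA. Whether replicates are separate animals is not said, so the p-values cover only how far these arrays lie apart, and that distance may be technical.

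Kupffer cells are the resident macrophages of the liver sinusoids, where they clear particles, complement-coated microbes, ageing red cells and haemoglobin from portal blood. Intravenous adenovirus is taken up largely in the liver, and Kupffer cells are among the first cells to take it up. When Kupffer cells are lost, monocytes recruited from blood can refill the niche and acquire the resident markers over time. Vsig4, Clec4f, Cd5l and, in mouse liver, Marco and Cd163 mark the resident cell, while Adgre1, Csf1r, Cd68 and the lysozymes are shared with recruited macrophages and monocytes. In whole liver RNA, fewer cells of a type and less RNA per cell cannot be told apart.

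The targeted gene gave an uneven check of the labels. Lpin1 read 2261 and 6719 in Ad-lipin replicates 1 and 2, against 2730 and 1430 in GFP replicates 1 and 2, on the dimmer of its probe sets, and 3854 and 11087 against 7082 and 4632 on the brighter. Ad-lipin replicate 1 therefore lay within the GFP range on the first and below both GFP arrays on the second, and each direction given here rests on the labels of the arrays. Where these probe sets lie relative to the cDNA in the virus is not known here. Signals are MAS5 intensities in arbitrary units, with a trimmed mean of 1501 on every array, and 4 arrays limit the precision of every value. GFP replicate 2 stood apart from the other arrays, with a mean correlation of 0.731 over the tested probe sets, against 0.781 to 0.793 for the rest, and its beta-actin control probes read 4.22 times as high at the 3' end as at the 5' end, against 1.77 to 2.86 times on the other arrays. Genes of the other liver cells were measured on the same arrays. All 14 hepatocyte genes on the array were bright enough to test. So were 12 of 14 sinusoidal endothelial genes, 11 of 13 stellate cell genes, 10 of 13 pan-leukocyte genes and 1 of 7 cholangiocyte genes. The lowest signal of any probe set of a listed gene on any array was 11.7. That value came from a dim probe set of a hepatocyte gene whose other probe set read 11701 to 21984.

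No macrophage marker passed the test between the arrays labelled Ad-lipin and GFP. Of the 14 probe sets, 12 (8 genes) were bright enough to test, and 0 of them had a limma adjusted p under 0.05 or an unadjusted p under 0.05. Over all 13576 probe sets tested, 0 (0.0%) passed after adjustment in either direction, and 596 (4.39%) had an unadjusted p under 0.05. Both Ad-lipin arrays lay above both GFP arrays for 1 of the 12 tested probe sets (Clec4f) and below them for 1 (a probe set of Lyz1), against 17.1% and 15.9% of all probe sets tested, and the groups overlapped in the other 10. Taking each gene by its brightest tested probe set, 1 of 8 genes lay above and 0 lay below, against 17.3% and 16.0% of the 8493 genes tested. The median log2 difference of the 8 genes was -0.12, against 0.0015 over all genes tested, with 3 above 0 and 5 below. Lyz1 and Lyz2 are both among the 5 below, and whether their probe sets read separate transcripts was not tested. For a single gene, the smallest two-sided p that an exact permutation test on this design allows is 0.333.

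**Figure D1:**
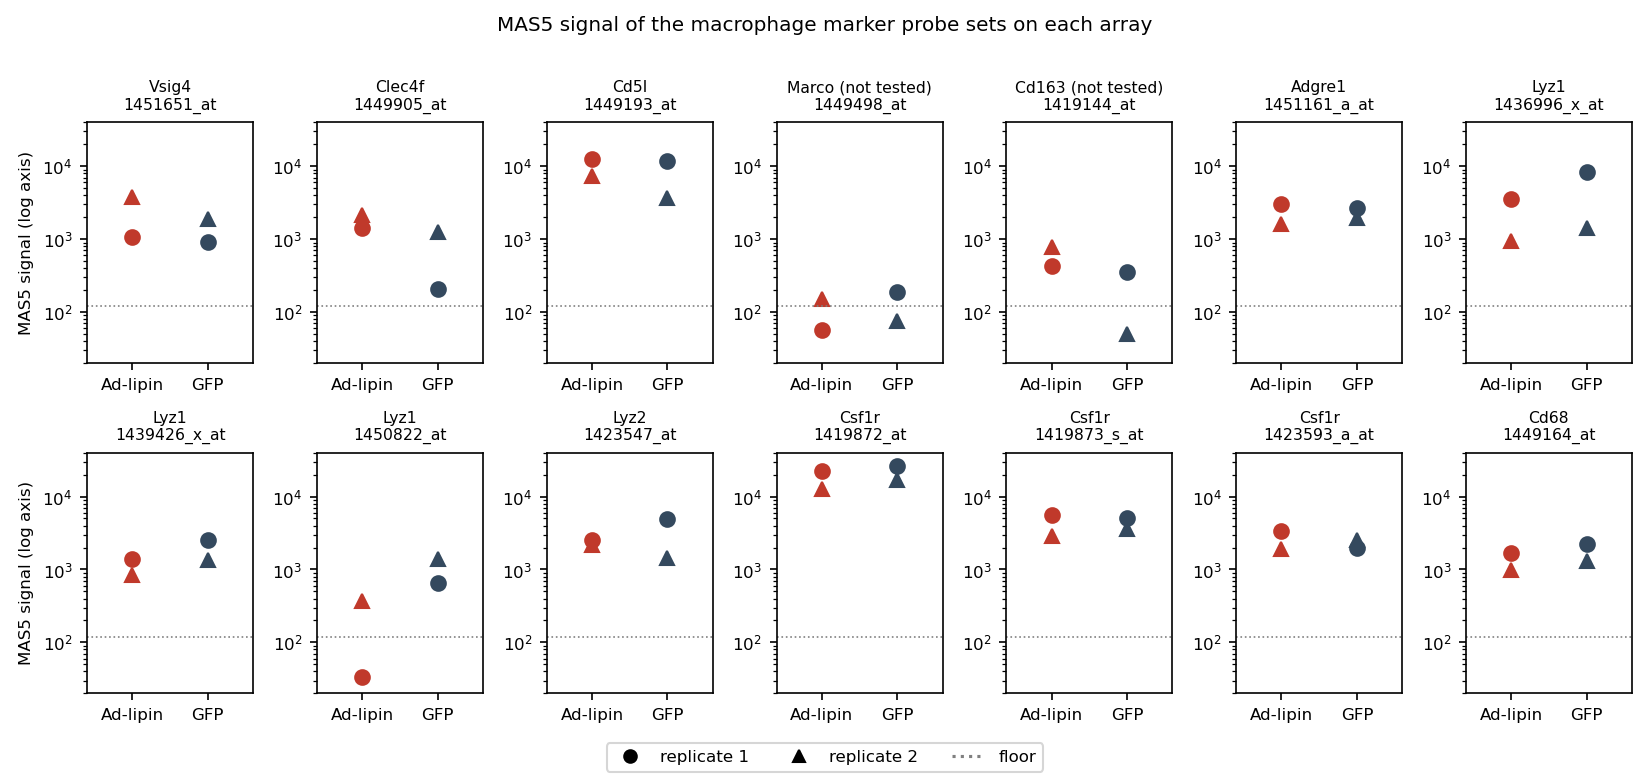
MAS5 signal (log axis, arbitrary units) of the 14 macrophage marker probe sets, with the 2 Ad-lipin arrays left of the 2 GFP arrays in each panel, circles for replicate 1, triangles for replicate 2 and a dotted line at the floor of 119.5. The 2 groups overlap in 11 panels and are apart for Clec4f, Cd163 and 1 probe set of Lyz1.

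The tested markers of the resident cell did not share an order of arrays: Clec4f and Vsig4 had their highest signal in Ad-lipin replicate 2 and Cd5l in Ad-lipin replicate 1. Cd163 was highest in Ad-lipin replicate 2 and Marco in GFP replicate 1, but both were too dim to test, with signals under the floor. The upstream sequences of Clec4f and Vsig4 (RefSeq, GRCm38.p6, the 250 bases before the annotated start, 5′ to 3′ on the gene's strand) are shown because these genes are the most specific to Kupffer cells among the members. Capitals mark GAGGAA, a core of the sites bound by the macrophage factor PU.1, which was searched on both strands as GAGGAA and TTCCTC. The Clec4f stretch is chr6:83656117-83656366 (minus strand) and the Vsig4 stretch chrX:96293439-96293688 (minus strand).
Clec4f: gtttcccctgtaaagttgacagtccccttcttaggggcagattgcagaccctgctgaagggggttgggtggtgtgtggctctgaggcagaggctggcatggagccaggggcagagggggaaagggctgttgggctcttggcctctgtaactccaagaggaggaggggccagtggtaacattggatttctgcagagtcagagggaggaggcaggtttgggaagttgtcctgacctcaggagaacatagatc
Vsig4: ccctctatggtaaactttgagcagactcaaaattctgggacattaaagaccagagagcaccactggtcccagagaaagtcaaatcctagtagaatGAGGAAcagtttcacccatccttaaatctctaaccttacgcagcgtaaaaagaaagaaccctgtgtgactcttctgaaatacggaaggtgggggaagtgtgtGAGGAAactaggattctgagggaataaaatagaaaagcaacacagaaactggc
Vsig4 holds the motif at positions -155 and -53 relative to the start, and Clec4f does not hold these letters in this window. Of all 32851 promoter stretches of this length in the table, 23.3% hold it, and among the 8 members with an entry 4 do (Vsig4, Cd5l, Marco and Cd68). A match is a description of the letters and was not tested as a binding site.

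Clec4f encodes a C-type lectin of the mouse Kupffer cell surface that binds galactose-type glycans. Its signal was 1413 and 2136 in Ad-lipin replicates 1 and 2, against 210 and 1245 in GFP replicates 1 and 2. Both arrays labelled Ad-lipin were higher, and GFP replicate 1 was the low value that sets most of the distance. On the log2 scale they differed by 1.77 ± 0.84 (SE, n = 2 in each group), or 3.40-fold. Its 95% interval ran from -0.04 to 3.57, and limma gave an adjusted p of 0.962. Leaving out GFP replicate 1 gave 0.48, whereas leaving out GFP replicate 2 gave 3.05.

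Vsig4 encodes CRIg, the complement receptor with which Kupffer cells catch C3-coated particles from the blood. It read 1058 and 3765 in Ad-lipin replicates 1 and 2, against 912 and 1878 in GFP replicates 1 and 2. The groups overlapped, and the 3.56-fold distance between the Ad-lipin arrays was wider than the distance between the group means. The log2 difference was 0.61 ± 0.64 (95% interval -0.76 to 1.98; limma adjusted p = 0.962), and it was -0.31 without Ad-lipin replicate 2 and 1.52 without Ad-lipin replicate 1.

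Cd5l encodes a secreted scavenger protein of tissue macrophages, also known as AIM, that circulates with IgM. Its signal was 12503 and 7414 in Ad-lipin replicates 1 and 2, against 11853 and 3701 in GFP replicates 1 and 2. Both replicates numbered 1 were near each other and GFP replicate 2 was the lowest array, so the groups overlapped. The log2 difference of 0.54 ± 0.47 (95% interval -0.46 to 1.54; limma adjusted p = 0.962) turned to -0.30 without GFP replicate 2 and was 1.38 without GFP replicate 1.

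The scavenger receptors Cd163 and Marco were too dim to test. Cd163, the haemoglobin-haptoglobin receptor, read 428 and 781 in Ad-lipin replicates 1 and 2, against 349 and 50.6 in GFP replicates 1 and 2, where the last value lies under the floor of 119.5 that was set on all signals. Both arrays labelled Ad-lipin were above both GFP arrays, by a floored log2 difference of 1.50 that has no test here. Marco, a class A scavenger receptor that binds bacteria and particles, read 56.9 and 152 in Ad-lipin replicates 1 and 2, against 187 and 76.2 in GFP replicates 1 and 2. Each group thus had 1 array under the floor, and Marco had no measurable order between the groups.

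Adgre1 encodes F4/80, the surface receptor by which mouse macrophages are commonly identified. Its signal was 3079 and 1598 in Ad-lipin replicates 1 and 2, against 2687 and 1966 in GFP replicates 1 and 2. The Ad-lipin arrays were the highest and the lowest of the 4, with both GFP arrays between them. The log2 difference was -0.05 ± 0.48 (95% interval -1.08 to 0.98; limma adjusted p = 0.995), and it ran from -0.52 without Ad-lipin replicate 1 to 0.42 without Ad-lipin replicate 2. Quantile normalization gave 0.0086, so no direction holds for Adgre1.

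Csf1r encodes the receptor for CSF1 and IL-34, on which macrophage survival depends, and 3 probe sets read it. The brightest gave 22294 and 12733 in Ad-lipin replicates 1 and 2, against 26254 and 16714 in GFP replicates 1 and 2, a log2 difference of -0.31 ± 0.36 (95% interval -1.09 to 0.46; limma adjusted p = 0.962). The next gave 5597 and 2891 in the Ad-lipin replicates, against 5139 and 3547 in the GFP replicates, a log2 difference of -0.09 ± 0.41. The third, whose ID ends in _a_at, gave 3362 and 1906 in the Ad-lipin replicates, against 1998 and 2547 in the GFP replicates, a log2 difference of 0.17 ± 0.46. Ad-lipin replicate 2 was the lowest array in all 3, and the groups overlapped in all 3. Each probe set changed sign when an array was left out, the brightest to 0.01 without GFP replicate 1 and 0.09 without Ad-lipin replicate 2, the next to 0.18 and 0.39 in the same settings, and the third to -0.01 without GFP replicate 1 and -0.24 without Ad-lipin replicate 1. Among the probe sets tested, the brightest Csf1r probe set had the narrowest interval of any member.

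Cd68 encodes a glycoprotein of macrophage endosomes and lysosomes, the mouse macrosialin. It read 1697 and 986 in Ad-lipin replicates 1 and 2, against 2250 and 1313 in GFP replicates 1 and 2. Ad-lipin replicate 2 was the lowest array and GFP replicate 1 the highest, as for the brightest Csf1r probe set, and the distance within each group was 1.72-fold and 1.71-fold. The log2 difference was -0.41 ± 0.57 (95% interval -1.62 to 0.80; limma adjusted p = 0.962), and it stood at -0.02 without GFP replicate 1 and also without Ad-lipin replicate 2.

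**Figure D2:**
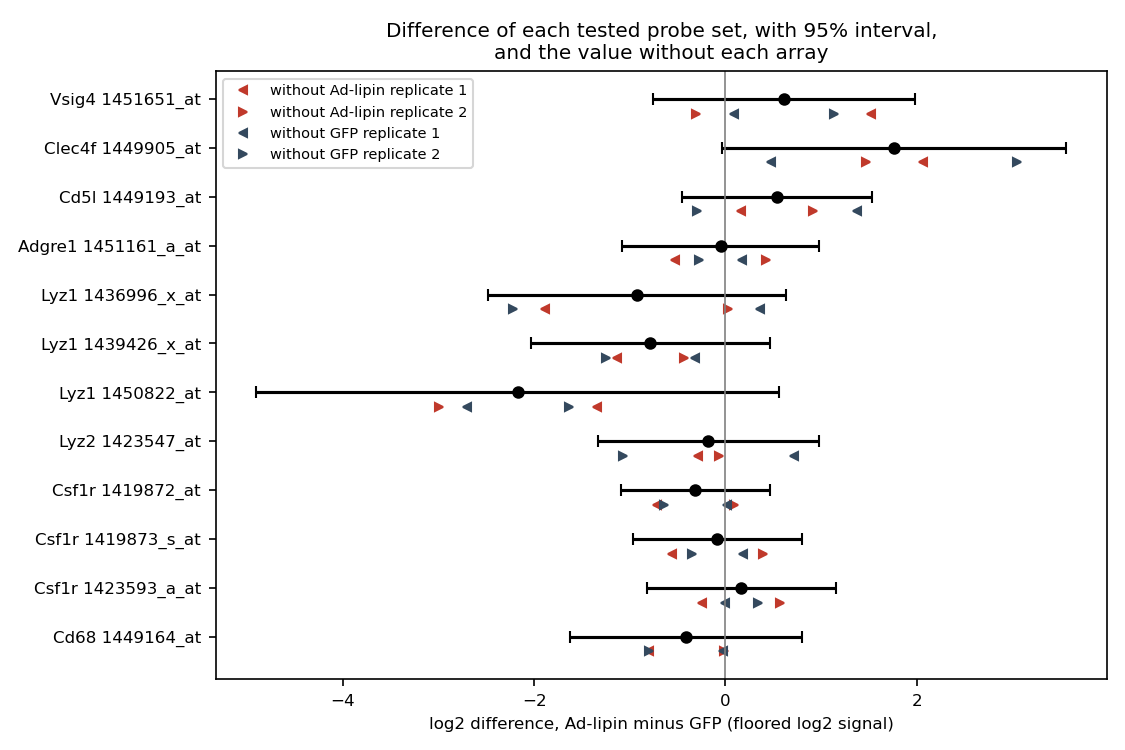
Log2 difference, Ad-lipin minus GFP, of the 12 tested probe sets (black points) with limma's 95% interval (bars), and below each the value without each array (red, without an Ad-lipin array; blue, without a GFP array; left-pointing, replicate 1; right-pointing, replicate 2). Every interval includes 0, and 8 of the 12 probe sets change sign without at least 1 array.

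Lysozyme breaks the cell walls of bacteria, and the mouse has neighbouring copies of the gene. Lyz2 is the myeloid form, while Lyz1 is best known from Paneth cells of the gut. Their starts lie 10596 bases apart on chromosome 10. Probes for the pair may not separate them, which was not tested. The upstream stretches are shown to compare the copies before the start. Their likeness cannot decide what the probes read, because these bases lie outside the annotated transcripts. Capitals here mark the 50 bases next to the start that are the same in both without a break. An alignment of the 250 bases gave 200 identical and 48 mismatched columns, an identity of 80.6% of aligned bases, with 4 gap columns. The Lyz1 stretch is chr10:117292869-117293118 and the Lyz2 stretch chr10:117282273-117282522 (GRCm38.p6, minus strand, RefSeq), and neither holds GAGGAA or TTCCTC in this window.
Lyz1: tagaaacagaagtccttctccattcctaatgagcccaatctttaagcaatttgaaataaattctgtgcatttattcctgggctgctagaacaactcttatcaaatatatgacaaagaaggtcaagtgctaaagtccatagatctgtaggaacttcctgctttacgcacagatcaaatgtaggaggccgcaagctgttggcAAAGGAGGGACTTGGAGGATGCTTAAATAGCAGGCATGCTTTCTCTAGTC
Lyz2: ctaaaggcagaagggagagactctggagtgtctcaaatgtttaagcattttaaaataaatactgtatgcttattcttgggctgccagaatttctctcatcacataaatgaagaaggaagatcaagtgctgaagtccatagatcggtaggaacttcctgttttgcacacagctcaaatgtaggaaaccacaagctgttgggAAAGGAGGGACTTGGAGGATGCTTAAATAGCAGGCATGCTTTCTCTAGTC

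Lyz2 read 2506 and 2153 in Ad-lipin replicates 1 and 2, against 4899 and 1415 in GFP replicates 1 and 2. The Ad-lipin arrays lay close together, 1.16-fold apart, and the GFP arrays lay on either side of them, 3.46-fold apart. The log2 difference was -0.18 ± 0.54 (95% interval -1.34 to 0.97; limma adjusted p = 0.978), and it became 0.72 when GFP replicate 1 was left out and -1.08 when GFP replicate 2 was.

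Lyz1 had 3 probe sets, of which the IDs of 2 end in _x_at, the mark of probes that can match other transcripts. The brightest, of that kind, read 3505 and 932 in Ad-lipin replicates 1 and 2, against 8427 and 1402 in GFP replicates 1 and 2. Its difference of -0.93 ± 0.73 in log2 (limma adjusted p = 0.962) turned to 0.37 without GFP replicate 1 and 0.03 without Ad-lipin replicate 2. The other _x_at probe set read 1370 and 842 in the Ad-lipin replicates, against 2562 and 1338 in the GFP replicates, a log2 difference of -0.79 ± 0.59, and -0.32 when GFP replicate 1 was left out or -1.25 when GFP replicate 2 was. In both, GFP replicate 1 was the highest array and Ad-lipin replicate 2 the lowest. The third probe set read 33.3 and 376 in the Ad-lipin replicates, against 660 and 1380 in the GFP replicates, with the first value under the floor. Both arrays labelled Ad-lipin were lower there, by a log2 difference of -2.17 ± 1.28 on the floored scale (95% interval -4.91 to 0.56; limma adjusted p = 0.962). That difference was -1.35 without Ad-lipin replicate 1 and -2.998 without Ad-lipin replicate 2. Its order of arrays differed from that of the _x_at probe sets, since GFP replicate 2 was its highest array. Signals of Lyz1 and Lyz2 are therefore given here as values of probe sets and not as levels of separate genes. In counts and medians over genes they still stand as 2 of the 8 tested, Lyz1 by its brightest _x_at probe set.

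The distance between arrays of the same group was often larger than the distance between the groups. Replicate 2 was below replicate 1 in both groups for 8 of the 14 probe sets and above it in both groups for 3 (Clec4f, Vsig4 and the third Lyz1 probe set). Csf1r and Lyz1 each gave 3 of the 14, and the same count over all probe sets was not made. Ad-lipin replicate 2, the array labelled polyA RNA, was the lowest array for 7 of the 14 probe sets and the highest for 3, and GFP replicate 1 was the highest for 6. The part of RNA type and of RNA quality in these differences was not tested. The median of the 8 tested genes, as log2 signal minus each gene's mean, was 0.35 in Ad-lipin replicate 1 and -0.35 in Ad-lipin replicate 2, against 0.53 in GFP replicate 1 and -0.19 in GFP replicate 2. The arrays of a group thus lay on opposite sides of the mean in both groups. The pooled SD between replicates of this median was 0.50, and the median difference of -0.12 is smaller than that. It was 0.27 without GFP replicate 1 and 0.06 without Ad-lipin replicate 2, and -0.47 without GFP replicate 2 and -0.41 without Ad-lipin replicate 1.

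**Figure D3:**
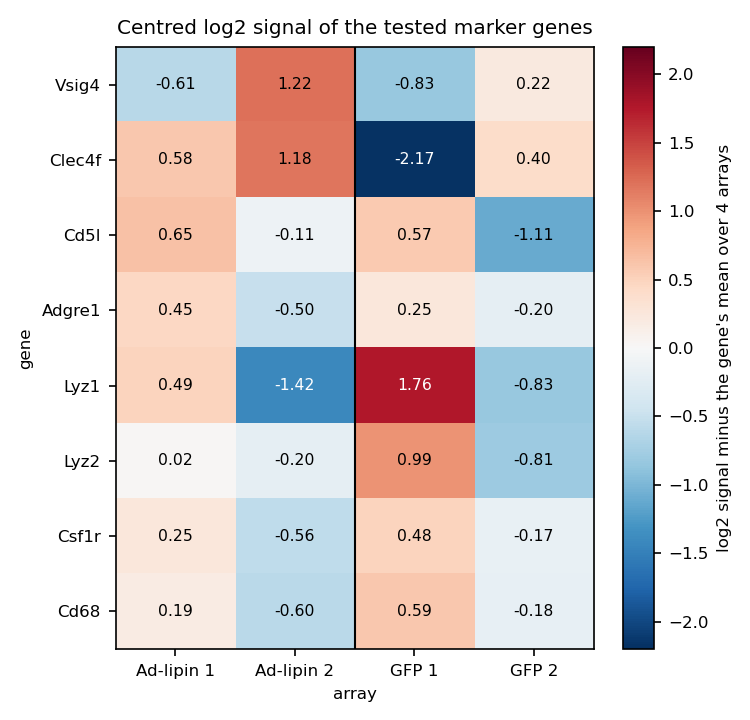
Log2 signal of the 8 tested marker genes (brightest tested probe set) minus the gene's mean over the 4 arrays, Ad-lipin replicates left and GFP replicates right of the black line, red above and blue below the mean. All but Vsig4 and Clec4f (6 of 8) are above the mean in both arrays numbered 1 and below it in both numbered 2, while Clec4f is far lower in GFP replicate 1 (-2.17) than elsewhere.

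By the root mean square distance of these centred values over the 4 arrays, Adgre1 (0.22), Csf1r (0.27) and Cd68 (0.32) lay nearest to the mean profile of the 8 genes, and Vsig4 (0.99), Lyz1 (1.05) and Clec4f (1.41) farthest from it. The nearest genes outside the list were Pcmtd1, Fam160b1, Ap3d1, Alg14 and Slc6a13, at 0.0289, 0.0361, 0.0375, 0.0387 and 0.0392. Of 8485 other genes, 3304 (38.9%) were within the median distance of the members, so 4 arrays hold little to tell such profiles apart.

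Further Kupffer cell genes gave differences on both sides of 0. Of 20 listed, 18 were on the array and tested. Of these, 0 passed after limma adjustment, 1 (C6) had an unadjusted p under 0.05, 9 differences were above 0 and 9 below, and the median was 0.09, or -0.15 to 0.21 with 1 array left out (lowest without Ad-lipin replicate 1, and -0.07 without GFP replicate 2). It was -0.02 with the floor at the 40th percentile. Both Ad-lipin arrays lay above both GFP arrays for 2 of the 18 and below for 1, against 17.3% and 16.0% of all genes tested. C1qa, a chain of the complement starter C1q that macrophages make, read 4039 and 1831 in Ad-lipin replicates 1 and 2, against 3056 and 98.0 in GFP replicates 1 and 2. Its log2 difference of 2.17 ± 1.06 rested on GFP replicate 2 and was -0.17 without it. Slc11a1, the phagosomal metal transporter Nramp1, had the same low array, with 1536 and 1873 in the Ad-lipin replicates, against 2276 and 408 in the GFP replicates, a log2 difference of 0.81 ± 0.74, and -0.42 without that array. C6, a terminal complement component that hepatocytes also make, had -0.85 ± 0.40, and -0.33 without Ad-lipin replicate 2. Il18bp, the decoy that binds IL-18, had 482 and 56.3 in the Ad-lipin replicates, against 1186 and 1259 in the GFP replicates, a log2 difference of -2.35 ± 1.11, and -1.34 without Ad-lipin replicate 2. The limma adjusted p of all 4 genes was 0.962.

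Genes of recruited monocytes and of macrophages in damaged tissue gave as many differences above 0 as below. Of 18 listed, 15 were on the array and 8 were tested, with 4 above 0, 4 below 0, a median of -0.14 and 0 past the limma threshold or an unadjusted p of 0.05. The median turned to 0.52 without Ad-lipin replicate 1, to 0.21 without GFP replicate 1 and to 0.08 with the floor at the 5th percentile. It was 0.52 with the filter at the 60th percentile, which left 4 genes. The differences above 0 were those of Apoe, Cx3cr1, Lgals3 and Fn1. Lgals3 had its lowest signal, 158, in GFP replicate 2, and Fn1 was bright, at 36857 to 61310 over the arrays. Which liver cells these signals came from was not tested. Ccr2, the chemokine receptor by which monocytes leave the marrow, read 834 and 118 in Ad-lipin replicates 1 and 2, against 888 and 1035 in GFP replicates 1 and 2. Its log2 difference of -1.60 ± 1.16 came from Ad-lipin replicate 2 and was -0.20 without it, and the other Ccr2 probe sets, too dim to test, gave -1.21 and 0.32. Cx3cr1, the fractalkine receptor, read 866 and 580 in the Ad-lipin replicates, against 255 and 188 in the GFP replicates, a log2 difference of 1.69 ± 1.39, with a dimmer probe set at -0.23. F13a1, coagulation factor XIII of monocytes, had -1.49 ± 1.24 and -0.16 without Ad-lipin replicate 2. Apoe, which hepatocytes make in bulk, had 0.82 ± 0.48, and 0.32 without GFP replicate 2. The limma adjusted p was 0.962 for each of these genes.

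The list of CSF1 receptor ligands, of CSF2 and its receptor genes and of transcription factors of the lineage lay on both sides of 0. The tested genes above 0 were all transcription factors. Of 15 listed, 14 were on the array and 11 tested, with 4 above 0, 7 below 0, a median of -0.23, 0 past the limma threshold and 1 (Cebpa) with an unadjusted p under 0.05. The median turned to 0.17 without GFP replicate 2, and it was -0.02 without IDs ending in _x_at, _s_at or _a_at. Il34, a ligand of Csf1r, read 276 and 255 in Ad-lipin replicates 1 and 2, against 809 and 606 in GFP replicates 1 and 2, a log2 difference of -1.40 ± 1.28. Both arrays labelled Ad-lipin were lower, and the probe set is dim. Csf1, the other ligand, read 1511 and 1306 in the Ad-lipin replicates, against 1178 and 2704 in the GFP replicates, on its brightest probe set. Its log2 difference was -0.35 ± 0.56 (limma adjusted p = 0.963). Its other tested probe sets gave -0.23 and -0.06, and one too dim to test 0.14. Cebpa and Cebpb, factors of myeloid cells that hepatocytes also express strongly, had 0.75 ± 0.33 and 0.70 ± 0.40, and Runx1 had -0.38 ± 0.57 on its brightest probe set, 0.17 without GFP replicate 2, and up to 1.25 on another. Cebpb stood at 0.32 without GFP replicate 2 and 0.39 without Ad-lipin replicate 2. Il34, Cebpa, Cebpb and Runx1 each had a limma adjusted p of 0.962.

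Phagocyte receptors, their adaptors and the NADPH oxidase had no direction that held under every choice of probe set. Of 20 listed, 16 were on the array and 14 tested, with 5 above 0, 9 below 0, a median of -0.36 and 0 past the limma threshold or an unadjusted p of 0.05. The median was -0.62 to -0.23 with 1 array left out, -0.19 with the mean of each gene's tested probe sets and 0.05 without IDs ending in _x_at, _s_at or _a_at. Both Ad-lipin arrays lay below both GFP arrays for 5 of the 14 and above for 1, against 16.0% and 17.3% of all genes tested. Fcgr3, a low-affinity IgG receptor, read 486 and 331 in Ad-lipin replicates 1 and 2, against 1104 and 1430 in GFP replicates 1 and 2, a log2 difference of -1.65 ± 0.85. Fcgr1, the high-affinity IgG receptor, lay the other way with 1071 and 1211 in the Ad-lipin replicates, against 413 and 592 in the GFP replicates, a log2 difference of 1.20 ± 0.81. Ncf4, an oxidase subunit, had 1.39 ± 0.91 and 0.32 without GFP replicate 2. Msr1, a scavenger receptor, had -1.01 ± 0.68 on its brightest probe set, -0.11 without Ad-lipin replicate 1, and 3 more probe sets between -1.17 and 1.30. The limma adjusted p was 0.962 for the 4 genes.

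Lysosome genes, which share their compartment with Cd68, were bright and lay on both sides of 0. Of 22 listed, 18 were on the array and tested, with 10 above 0, 8 below 0, a median of 0.06, 0 past the limma threshold and 2 (Grn and Ctsz) with an unadjusted p under 0.05. The median turned to -0.17 without GFP replicate 2, and it was -0.01 without IDs ending in _x_at, _s_at or _a_at. Grn, progranulin, read 44033 and 31414 in Ad-lipin replicates 1 and 2, against 81718 and 65424 in GFP replicates 1 and 2, a log2 difference of -0.98 ± 0.36, with its other probe sets at -0.46 and -0.35. The lysosomal carboxypeptidases Ctsz and Ctsa had 0.94 ± 0.40 and 1.00 ± 0.52, and without GFP replicate 2 they had 0.58 and 0.49. Npc2, which hands cholesterol out of the lysosome, had -0.59 ± 0.31, with a second probe set at -0.01. Each of these genes had a limma adjusted p of 0.962, and hepatocytes express lysosome genes too.

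Pan-leukocyte genes were measured beside the markers, since macrophages are only some of the leukocytes of a liver. Of 13 listed, all were on the array and 10 were tested, each by its brightest probe set, with 4 above 0, 6 below 0, a median of -0.26 and 0 past the limma threshold or an unadjusted p of 0.05. The median turned to 0.24 without GFP replicate 1. It was -0.82 without GFP replicate 2 and -0.75 without IDs ending in _x_at, _s_at or _a_at. Both Ad-lipin arrays lay below both GFP arrays for 3 of the 10 and above for 0, against 16.0% and 17.3% of all genes tested. The summed signal of the list, taking each gene's brightest probe set, was 12465 and 10806 in Ad-lipin replicates 1 and 2, against 18726 and 9777 in GFP replicates 1 and 2. GFP replicate 1 had the highest sum, as it had the highest signal for 6 of the 14 macrophage marker probe sets, and the part of leukocyte number in the markers' values was not tested. Srgn, serglycin of secretory granules, had -0.75 ± 0.45, Cd52, a surface glycoprotein, -1.23 ± 1.01, and Rac2, a GTPase of blood cells, -0.79 ± 0.72 and -0.14 without Ad-lipin replicate 2. Laptm5, a lysosomal protein of leukocytes, had 1.06 ± 0.75, which was -0.20 without GFP replicate 2, and its other probe sets gave 1.90 (unadjusted p = 0.0472) and -0.38. These 4 genes had limma adjusted p-values of 0.962. The neutrophil list, which marks the other phagocyte that could enter an infected liver, had 8 of 11 genes tested, 1 above 0 and 7 below, a median of -0.26 (-0.56 to -0.26 with 1 array left out) and summed signals of 7266 and 6402 in the Ad-lipin replicates, against 9592 and 9133 in the GFP replicates. Its median was -0.14 with no filter, -0.15 with the floor at the 40th percentile and -0.14 with the filter at the 60th percentile. Both Ad-lipin arrays lay below both GFP arrays for 1 of its 8 tested genes and above for 0, against 16.0% and 17.3% of all genes tested. The dendritic cell list had 4 of 8 genes tested and a median of -0.50, which was 0.23 without GFP replicate 2, 0.18 with no filter and 0.61 with the filter at the 60th percentile, with 0 of the tested genes of either list past the limma threshold or an unadjusted p of 0.05.

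**Figure D4:**
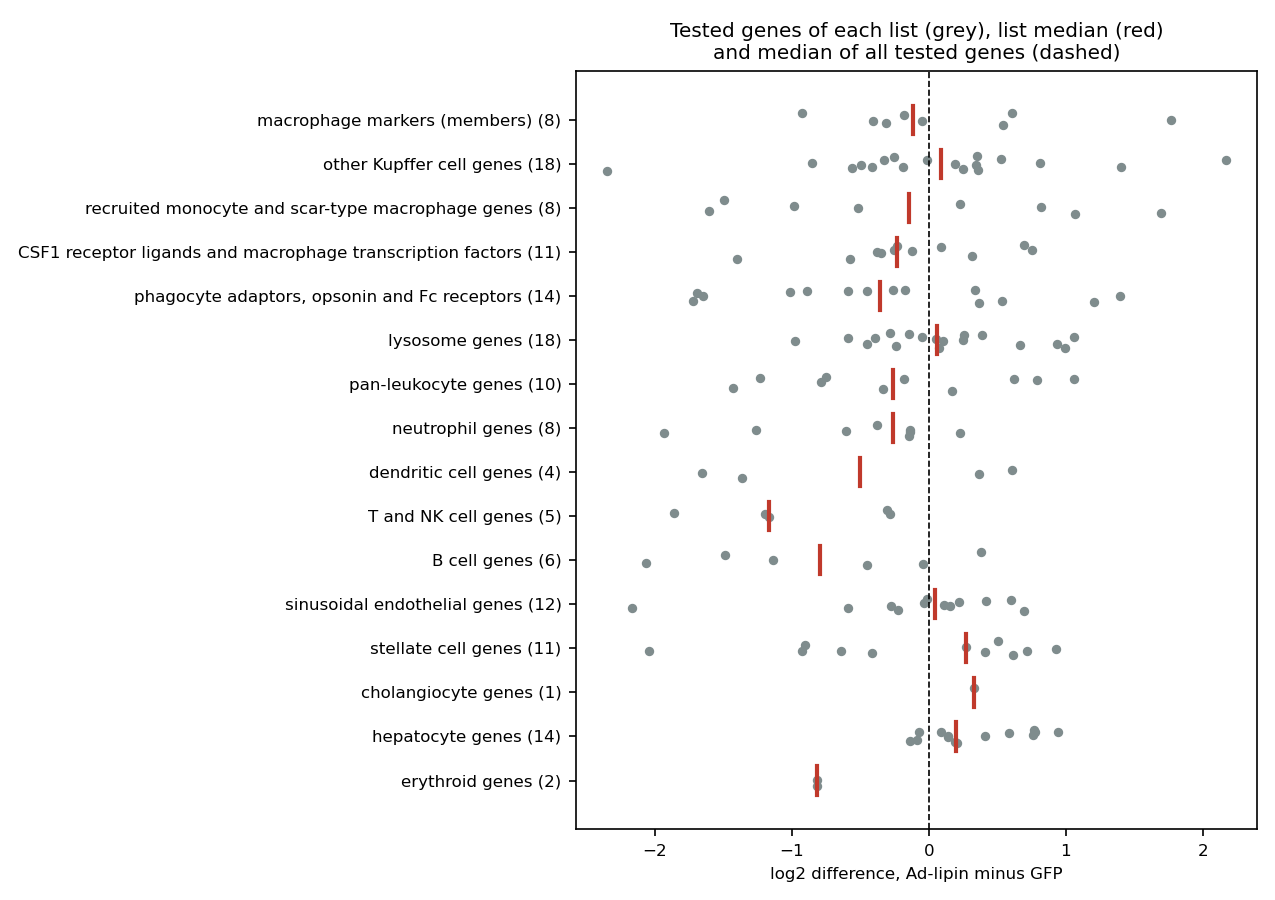
Log2 difference, Ad-lipin minus GFP, of the tested genes of each list (grey points, 1 per gene, number tested in brackets), with the list's median in red and the median of all 8493 tested genes dashed. The macrophage markers lie from -0.93 (Lyz1) to 1.77 (Clec4f) around a median of -0.12.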

How the data were processed

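Each array's file holds deposited intensity on a linear scale, which the authors computed with MAS5 per the submitters' processing notes. No source used here gives the version or the scaling target, and no further scaling was applied. Samples were grouped by title. The 64 control probe sets were dropped, and log2 was taken after raising lower signals to a floor of 119.5, the 20th percentile. Tests covered the 13576 probe sets whose average reached the 40th percentile, a signal of 373. The tests, with 95% intervals, used limma 3.58.1 in R 4.3.3 (lmFit, eBayes with an intensity trend), two-sided, with Benjamini-Hochberg adjustment (threshold 0.05). Every fold change is on this floored scale. Of 22626 probe sets, 20380 had 1 gene symbol, 691 several and 1555 were not listed, and 20351 matched RefSeq (GRCm38.p6) by Entrez identifier.

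Members and lists were chosen with earlier results of these data known. Named are all member probe sets, Lpin1, the 5 genes nearest in profile, and up to 4 tested genes by smallest p of each list described with genes. Cd79b and Ighm are named to complete the B cell genes tested, and Lgals3 and Fn1 to complete the recruited monocyte genes above 0. Csf1 is named as the other tested ligand of Csf1r. T and NK cell probe sets too dim to test are named as examples of both signs. In counts of genes, each stands by the brightest of its tested probe sets. On simulated data (20 sets, 200 of 13576 probe sets changed), limma recovered 13.9% of 4-fold, 36.7% of 8-fold, 57.8% of 16-fold and 72.8% of 32-fold changes, with 7.75 false calls on average. Each set mixed these sizes, and all arrays shared the same spread within a probe set, so none stood apart as GFP replicate 2 did. Recovery of 4-fold changes on their own was not simulated. Deviations of same-numbered arrays from their group means correlated at 0.028, so the numbers were not taken to pair the samples. Alternatives covered normalization, floor, filter, variance model, threshold, replicate block, each array left out, and the choice of probe set.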

Additional observations from a re-analysis of the deposited data

How the results depend on the processing

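No detection calls were used, so how far a dim probe set stood over background is unknown. Limma recovered 13.9% of simulated 4-fold changes, in sets that also held larger changes. No macrophage marker probe set was called under any alternative run, where adjusted p-values ran from 0.348 to 1.00. Over all probe sets, limma called 52 with the replicate block, 34 higher and 18 lower, of which 0 were macrophage markers. In that fit the spread came from the intensity trend alone, and the replicate numbers share only a number. Leaving out 1 array in turn, 0 to 13 probe sets were called, 2 without GFP replicate 2, 3 without Ad-lipin replicate 2 and 13 without Ad-lipin replicate 1, and 0 in each other alternative. The number of macrophage marker genes whose groups did not overlap, 1 of 8, was 2 with no filter, 2 with the mean of the tested probe sets and 2 when IDs ending in _x_at, _s_at or _a_at were dropped, and ran from 3 (without GFP replicate 1, and without Ad-lipin replicate 2) to 6 (without GFP replicate 2, and without Ad-lipin replicate 1), where 1 array against 2 separates more often by construction. Their median log2 difference moved by less than the spread between replicates, 0.50, under every alternative. It ran from -0.18 to -0.03 with all arrays and from -0.47 to 0.27 with 1 left out. It changed sign without GFP replicate 1 and without Ad-lipin replicate 2. The spread comes from these same arrays, so a smaller move with 1 left out says little. Differences changed sign in 8 of the 12 probe sets when 1 array was left out, with ranges of -0.31 to 1.52 for Vsig4, -0.30 to 1.38 for Cd5l, -0.52 to 0.42 for Adgre1, -2.22 to 0.37 for the brightest Lyz1 probe set, -1.08 to 0.72 for Lyz2, and -0.72 to 0.0898, -0.56 to 0.39 and -0.24 to 0.58 for the Csf1r probe sets from brightest to dimmest. Adgre1 was also 0.0086 after quantile normalization. Outside the markers, ranges were computed only for genes named by smallest p, up to 4 of a list. Among those, the ranges with a change of sign were -0.17 to 4.51 for C1qa, -0.42 to 2.05 for Slc11a1, -0.20 to 2.32 for Laptm5 and -0.93 to 0.17 for Runx1. Other listed genes were not followed in this way. The cause of these changes was not tested.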

Other observations

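Most B cell genes tested had lower means in the arrays labelled Ad-lipin, without passing the test. Of 10 listed, 8 were on the array and 6 tested, with 1 above 0, 5 below 0 and a median log2 difference of -0.79, and both Ad-lipin arrays lay below both GFP arrays for 4 of the 6, against 16.0% of all genes tested. Blnk, an adaptor of the B cell receptor, read 992 and 575 in Ad-lipin replicates 1 and 2, against 1857 and 2409 in GFP replicates 1 and 2, a log2 difference of -1.49 ± 0.60. Cd79a, a chain of the B cell receptor complex, read 283 and 220 in the Ad-lipin replicates, against 894 and 1217 in the GFP replicates, a difference of -2.06 ± 1.11. Cd22, a B cell lectin, had -1.14 ± 1.11, and a dimmer probe set at 0.29. Ms4a1, which encodes CD20, had -0.45 ± 0.88 and -0.13 without Ad-lipin replicate 2, and a dimmer probe set at 1.64. The remaining tested genes were Cd79b, at -0.05 ± 1.26, and Ighm, at 0.38 ± 0.85 on its brightest probe set. Other tested Ighm probe sets ran from -2.45 to 0.77. Of the 6 tested, 0 passed the limma threshold after adjustment and 1 (Blnk) had an unadjusted p under 0.05, and the list was picked out after its values were seen. The differences of the T and NK cell genes tested were also below 0. Probe sets of this list too dim to test lay on both sides of 0. Among them were Cd3g at 1.44, Cd3e at 0.49, a dimmer Cd8a probe set at 0.59 and Klrd1 at -0.47. Of 14 listed, 13 were on the array and 5 tested, with 0 above 0, 5 below 0, a median of -1.17, 2 (Gzma and Cd8a) lower in both Ad-lipin arrays than in both GFP arrays, and 0 past the limma threshold or an unadjusted p of 0.05. The median of this list was 0.01 without Ad-lipin replicate 2, -0.50 without GFP replicate 2, -0.26 with no filter, -0.30 with the filter at the 60th percentile and -0.32 with the floor at the 40th percentile, while that of the B cell list ran from -1.31 (without IDs ending in _x_at, _s_at or _a_at) to -0.55 (filter at the 60th percentile).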
